A study of Mus musculus with 24 samples.

Results

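The genes described here encode the insulin, mTOR and AMPK signalling pathways, measured in the pancreas of mice fed a high-fat diet. The list held 36 genes, of which 34 had at least 1 probe in the platform annotation, with 79 probes in all. A probe was kept where its detection p-value was under 0.05 on at least 4 of the 24 arrays. This left 41 probes of 28 genes, out of 15328 kept probes among 45281 on the array. Irs2, Sos1, Akt1, Akt2, Foxo3 and Map2k1 had annotated probes, none of which was detected on more than 3 arrays. Rps6kb1 and Mapk3 were not analysed here.

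Insulin and IGF1 bind receptor tyrosine kinases, which phosphorylate docking proteins of the IRS and Shc families. Docked PI3K makes a membrane lipid that recruits the kinases PDK1 and Akt, and Akt in turn restrains GSK3, the FOXO transcription factors and the TSC complex. TSC holds back Rheb, the activator of mTOR complex 1, which drives protein synthesis. AMPK, a sensor of low cellular energy that is switched on by the kinase LKB1, acts against mTOR complex 1. In the pancreas these pathways are known for adjusting islet beta cell mass and the protein output of acinar cells. Much of this control works through protein phosphorylation, which an RNA array does not measure.

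Frozen pancreas from male mice of the inbred C57BL/6J strain, which readily becomes obese on fat-rich food, gave the RNA. Every group ate a high-fat diet of 60% fat and the tissue was taken after 12 weeks of it. All samples carry an age label of 3 weeks, which cannot be the age at collection after 12 weeks of diet. The groups received sitagliptin, a drug against DPP-IV, the enzyme that degrades incretin hormones, at 150 mg per L in the drink; AFFB, a blackberry and blueberry beverage fermented and freed of alcohol, at 8.4 mg anthocyanin per kg per day; or plain water. The other groups drank PAE, an extract holding the phenolics of AFFB, at 1.1 (0.1X), 9.0 (1X) and 18.9 (3X) mg anthocyanin per kg per day, and the top dose is 2X in the treatment protocol. Each group had 4 arrays out of 12 mice randomized. No label says that the 4 arrays of a group came from 4 separate animals, so the p-values reflect only how these samples vary, and part of that variation may be technical.

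Values are log2 signals after background correction and quantile normalization, and a difference of 1 is 2-fold. Each gene is described by its kept probe of highest mean, and other kept probes are given beside it. The levels of different probes are not set against each other. In whole tissue, fewer cells of a type and less RNA per cell cannot be told apart. Of 14 acinar markers 11 were measured, with group means of 13.46 to 13.54, and islet markers, 9 of 14 measured, ran from 5.76 to 8.35 between single arrays, so the pancreas label matched the markers. Between 10888 and 14060 probes were detected per array. Some arrays stood apart from their groups. Water 4, sitagliptin 4, PAE 1X 4, PAE 3X 2 and PAE 3X 3 had a clock output score of 0.876 to 1.43, against at most 0.294 elsewhere. This score was the mean standardized level of 10 circadian genes, with the sign of Clock reversed. AFFB 2, PAE 1X 2 and sitagliptin 3 lay at 38.8, 56.1 and 33.7 on the first principal component, which held 28.4% of the variance, against at most 19.0 elsewhere.

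No probe of these genes passed an adjusted p of 0.05 in any of the 8 comparisons, by limma with Benjamini-Hochberg adjustment over all 15328 kept probes. Passing probes were also few across the array. Their share of all kept probes was 0% for sitagliptin against water, 0% for AFFB, 0% for PAE 0.1X, 0.00652% for PAE 1X and 0.0457% for PAE 3X. It was 0.00652% for AFFB against PAE 1X, 0.157% for the linear trend over water and the 3 PAE doses, and 0.104% for the F test over the 5 treatments. Higher and lower therefore compare means and carry no call.

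At an unadjusted p under 0.05, the signalling genes had 4 of 41 probes for sitagliptin against water (9.76%), beside 2.74% of all kept probes. They had 3 for AFFB (7.32%, beside 5.03%), 2 for PAE 0.1X (4.88%, beside 3.78%), 2 for PAE 1X (4.88%, beside 6.50%) and 3 for PAE 3X (7.32%, beside 5.03%). The counts were 0 for AFFB against PAE 1X (beside 4.41%), 4 for the trend (9.76%, beside 6.88%) and 2 for the F test (4.88%, beside 4.31%). Each of these counts rests on at most 4 probes. The 5 comparisons with water share its 4 arrays, so they are not independent of one another. The arrays of treated and water mice did not overlap for 1 probe under sitagliptin, 0 under AFFB, 3 under PAE 0.1X, 1 under PAE 1X and 3 under PAE 3X. Across all kept probes that share was 2.17%, 3.60%, 2.99%, 3.89% and 4.68% in the same order.

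**Figure D1:**
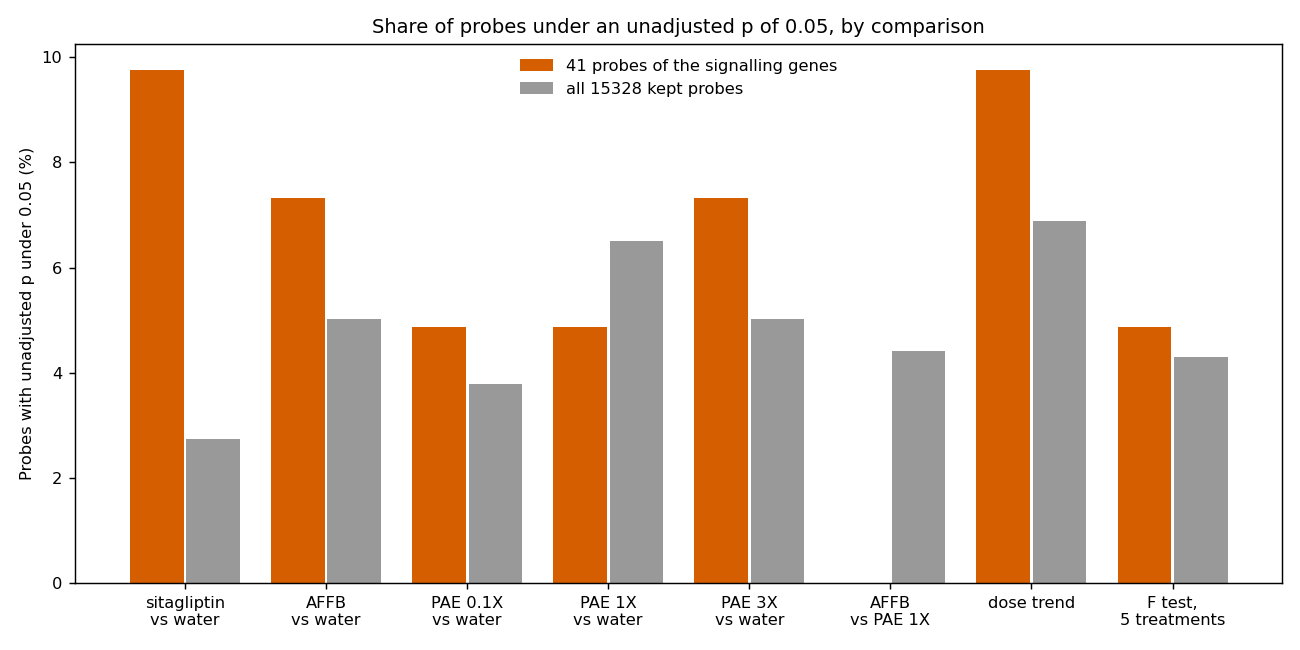
Percent of probes with an unadjusted p under 0.05 in each of 8 comparisons, for the 41 probes of the signalling genes (left bar) and for all 15328 kept probes (right bar). The signalling genes reach 9.76% for sitagliptin and for the dose trend, and 0 for AFFB against PAE 1X.

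Over the 28 genes, 12 were higher and 16 lower than in water under sitagliptin, with a median difference of -0.01, beside 0.01 over all kept probes. Under AFFB 10 were higher and 18 lower (median -0.03, beside 0.00). PAE 0.1X gave 15 higher and 13 lower (0.02, beside -0.00), PAE 1X 15 and 13 (0.04, beside 0.02), and PAE 3X 12 and 16 (-0.03, beside 0.01). AFFB against PAE 1X split 14 to 14, as did the trend. These splits depended on the scaling. With median scaling in place of quantile normalization the median of all kept probes moved to 0.13 for PAE 1X, 0.16 for PAE 3X and -0.13 for AFFB against PAE 1X, and 19, 20 and 3 of the 28 genes were then higher. That scaling gave 15 higher for sitagliptin, 13 for AFFB, 15 for PAE 0.1X and 20 for the trend.

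Unadjusted confidence intervals gave a range for the differences in measured signal. The 95% confidence interval of the difference from water lay within 1 log2 unit on either side of 0 for all 28 genes under sitagliptin, AFFB, PAE 1X and PAE 3X, and for 27 under PAE 0.1X, where Foxo1 was the exception. Across all kept probes 94.6% to 97.1% lay within it. Some of the 28 probes lay near background, among them Irs1 (detected on 5 arrays), Pik3ca (4), Gsk3a (7) and Prkaa1 (7). For such probes the interval describes the measured signal and cannot exclude a 2-fold difference in RNA. The median half-width of the interval was 0.35 over the 28 genes. Their median within-group SD was 0.24, beside 0.25 over all kept probes, with Gsk3b (0.37), Socs3 (0.35) and Foxo1 (0.35) the most variable and Prkag1 (0.13) the least. Limited to probes detected on all 24 arrays, the medians were 0.262 for the signalling genes and 0.257 for all kept probes.

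**Figure D2:**
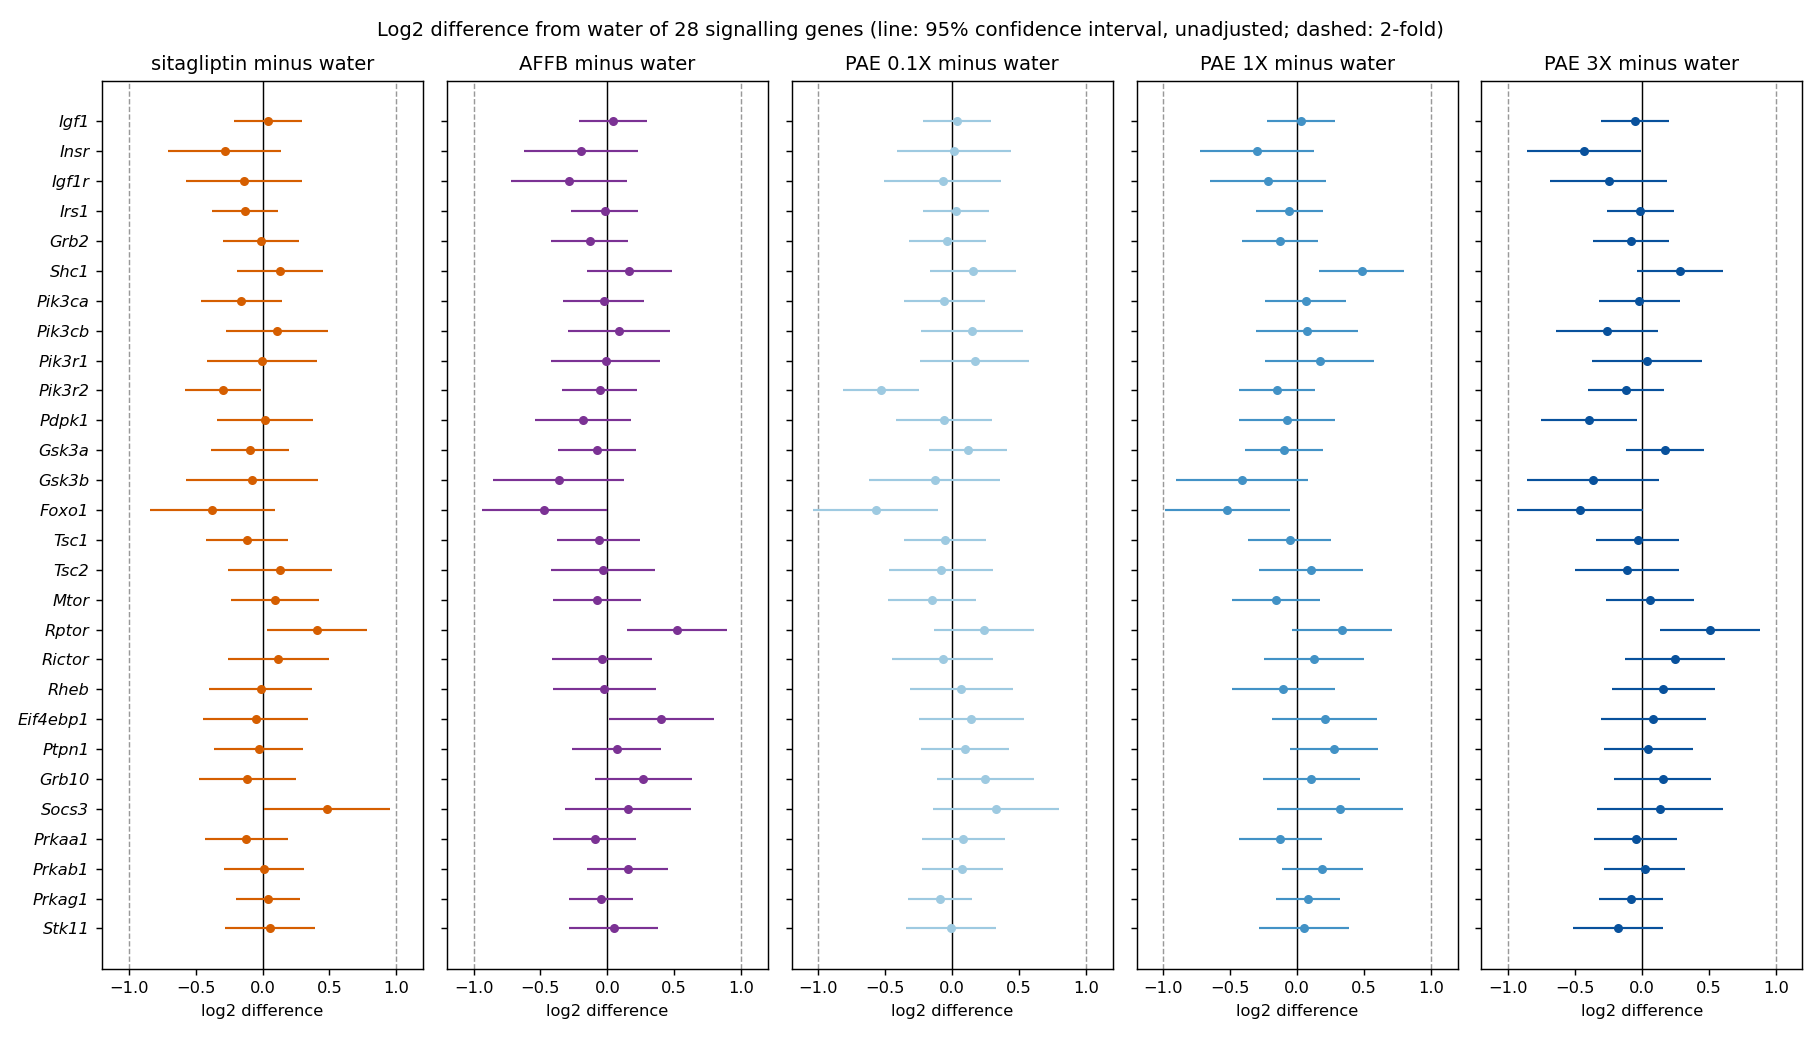
Log2 difference from water of the 28 signalling genes, ordered by role, under sitagliptin, AFFB and the 3 PAE doses. Points are differences of means of 4 arrays, lines are unadjusted 95% confidence intervals and dashed lines mark 1 log2 unit. The longest reach is that of Foxo1 under PAE 0.1X, down to -1.04.

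Among the ligand and receptors, Insr, the insulin receptor, had the smallest p. Its log2 signals were 7.44, 8.05, 7.69 and 6.90 on the PAE 3X arrays, against 8.02, 7.97, 7.87 and 7.97 in water. The water arrays lay close together, and 3 of the 4 PAE 3X arrays lay below all of them while PAE 3X 2 lay above. The difference was -0.43 (SE 0.21), with an unadjusted p of 0.046 and an adjusted p of 0.98 by limma. The other groups gave 7.53, 7.91, 7.26 and 7.99 under sitagliptin, 7.93, 7.53, 7.65 and 7.94 under AFFB, 8.29, 7.83, 7.69 and 8.07 under PAE 0.1X, and 7.47, 7.40, 7.65 and 8.11 under PAE 1X. Per step from water through 0.1X and 1X to 3X, Insr differed by -0.16 (SE 0.065), with an unadjusted p of 0.0209 and an adjusted p of 0.611. Insr was the highest of its group on 3 of the 5 arrays of high clock score, namely sitagliptin 4, PAE 1X 4 and PAE 3X 2. Only PAE 3X 1 and PAE 3X 4 of that group remained without the 5 arrays of high clock score. The PAE 3X difference was then -0.78 (adjusted p = 0.373). Without PAE 3X 4 it was -0.23, and with median scaling -0.11.

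Igf1r, the receptor of IGF1, averaged 6.59 ± 0.42 under sitagliptin, 6.44 ± 0.28 under AFFB, 6.65 ± 0.42 under PAE 0.1X, 6.51 ± 0.35 under PAE 1X, 6.48 ± 0.19 under PAE 3X and 6.72 ± 0.10 in water (SD, n = 4 each). The differences from water ran from -0.29 under AFFB to -0.07 under PAE 0.1X. These gaps were smaller than the within-group SD of 0.32 pooled over all groups, but that SD describes single arrays and not means of 4. The water arrays by themselves lay closer together. A further Igf1r probe, detected on 18 arrays, differed from water by between -0.23 under PAE 1X and 0.13 under sitagliptin. Igf1, the growth factor that this receptor binds, showed the third smallest spread of the 28 genes, with a within-group SD of 0.15. Its group means ran between 9.84 under PAE 3X and 9.94 under AFFB, beside 9.90 in water. Its other probe, also on all arrays, differed from water by between -0.21 under PAE 3X and -0.02 under sitagliptin.

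Of the adaptors, Shc1, which links receptors to the Ras and MAPK pathway, was highest under the middle extract dose. The PAE 1X arrays gave 9.07, 9.41, 8.85 and 8.69, against 8.59, 8.52, 8.43 and 8.55 in water. All 4 PAE 1X arrays lay above all 4 water arrays. The difference was 0.48 (SE 0.16), with an unadjusted p of 0.00476 and an adjusted p of 0.535 by limma. It was 0.80 with median scaling, 0.29 as the mean of both kept Shc1 probes and 0.35 without PAE 1X 2. PAE 0.1X gave 8.69, 8.76, 8.68 and 8.59, also without overlap with water before rounding, and PAE 3X gave 9.02, 8.62, 8.52 and 9.06. The trend was 0.12 per step (SE 0.049, adjusted p = 0.646). Sitagliptin arrays stood at 8.73, 8.49, 8.81 and 8.57.

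AFFB and PAE 1X carried similar anthocyanin doses, 8.4 and 9.0 mg per kg per day, so their comparison sets the whole beverage beside its extract. Shc1 had the smallest p of the 28 genes here too, with 8.49, 9.04, 8.50 and 8.71 under AFFB and a difference of -0.32 (SE 0.16, 95% confidence interval -0.64 to 0.00, adjusted p = 1). The highest arrays of the 2 groups were AFFB 2 and PAE 1X 2, both far on the first principal component, and PAE 1X 1 at 9.07, which was not. Without PAE 1X 2 the difference was -0.18. The next smallest p was that of Ptpn1, a phosphatase that removes phosphate from the insulin receptor. Ptpn1 gave 4.19, 4.36, 4.85 and 5.05 under AFFB, against 4.68, 5.08, 4.84 and 4.67 under PAE 1X, a difference of -0.21 (SE 0.16, unadjusted p = 0.214, adjusted p = 1). These groups overlapped, and Ptpn1 was detected on 10 of the 24 arrays.

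A further Shc1 probe was detected on 7 arrays and on none of water, AFFB and PAE 3X, so its level in water is only a bound. Its measured values differed from water by 0.33 under sitagliptin (unadjusted p = 0.0468) and by 0.10 under PAE 1X. Irs1, the main docking protein of the insulin receptor in many tissues, was near background, with detection on 5 arrays and means of 4.41 under sitagliptin, 4.52 under AFFB, 4.57, 4.48 and 4.53 along the PAE doses, and 4.54 in water. Grb2, an adaptor between receptors and the exchange factor Sos1, was detected on 10 arrays and differed from water by between -0.13 and -0.01.

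In the PI3K group the smallest p of any member belonged to Pik3r2, a regulatory subunit of PI3K. Its signals were 4.72, 4.93, 4.64 and 4.68 under PAE 0.1X, against 5.03, 5.18, 5.53 and 5.37 in water. The groups did not overlap. The difference was -0.53 (SE 0.14), with an unadjusted p of 0.000682 and an adjusted p of 0.871 by limma. Sitagliptin gave 4.93, 4.89, 5.07 and 5.04, which lay below the water mean on all 4 arrays but overlapped water at its lowest array, with a difference of -0.29 (SE 0.14, adjusted p = 1). AFFB gave 4.81, 5.37, 5.33 and 5.38. PAE 1X gave 5.13, 5.04, 5.31 and 5.05, and PAE 3X gave 5.33, 5.01, 5.25 and 5.04. Collagen and stellate markers were lower on these PAE 0.1X arrays as well, at 5.89 to 6.09, against 6.22 to 6.51 in water, and their part was not tested. Pik3r2 was low at the lowest extract dose and close to water at the higher doses. Over the 5 treatments its F test had an unadjusted p of 0.00849 and an adjusted p of 0.759. A further Pik3r2 probe, detected on 11 arrays and on none of PAE 0.1X, differed in measured value by -0.15 under PAE 0.1X, where its level is only a bound, and by 0.08 under sitagliptin.

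Pdpk1, the kinase PDK1 that activates Akt, was lowest under the top dose. Its PAE 3X arrays gave 6.05, 6.05, 5.71 and 6.15, against 6.69, 6.17, 6.19 and 6.49 in water, without overlap. The difference was -0.39 (SE 0.17), with an unadjusted p of 0.0332 and an adjusted p of 0.939 by limma. The other Pdpk1 probe, detected on all 24 arrays, differed by -0.26. With median scaling the first probe's difference was -0.12, and without the 5 arrays of high clock score it was -0.25. Leaving those arrays out kept only PAE 3X 1 and PAE 3X 4 of the top dose. The remaining groups overlapped water, with means of 6.41 under sitagliptin, 6.20 under AFFB, 6.32 under PAE 0.1X and 6.31 under PAE 1X, beside 6.39 in water. Pik3r1, the most widely expressed PI3K regulatory subunit, had 2 probes on all arrays, which differed from water by between -0.03 and 0.19. Of the catalytic subunits, Pik3cb differed by between -0.26 under PAE 3X and 0.15 under PAE 0.1X, and Pik3ca was detected on 4 arrays only.

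Foxo1, a transcription factor that Akt excludes from the nucleus, had the most negative difference from water of the 28 genes, under PAE 0.1X. Its signals were 5.09, 5.32, 4.56 and 5.63 under sitagliptin and 5.31, 4.63, 4.86 and 5.43 under AFFB, against 5.46, 5.38, 5.29 and 5.98 in water. Along the extract doses Foxo1 gave 5.23, 4.79, 5.03 and 4.77 under PAE 0.1X, 4.91, 4.40, 5.30 and 5.40 under PAE 1X, and 4.91, 5.26, 5.06 and 5.02 under PAE 3X. PAE 0.1X and PAE 3X did not overlap water, while the other groups did. The differences from water, which all rest on the same 4 water arrays, were -0.37, -0.47, -0.57, -0.52 and -0.46 for sitagliptin, AFFB, PAE 0.1X, PAE 1X and PAE 3X (SE 0.23 each). The smallest unadjusted p was 0.0188, for PAE 0.1X, with an adjusted p of 1 and a 95% confidence interval of -1.04 to -0.10.

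A further Foxo1 probe, detected on 14 arrays, did not share this pattern, with differences of 0.05, 0.04, 0.12, -0.09 and -0.08 in the same order. On the arrays that stood apart Foxo1 lay at either end of its group. It was the highest of its group on 4 of the 5 arrays of high clock score, among them water 4 at 5.98, and the lowest of its group on all 3 arrays far on the first principal component. Without the 3 arrays far on that component the differences were -0.18 for sitagliptin, -0.33 for AFFB and -0.32 for PAE 1X. Without the 5 arrays of high clock score they were -0.39, -0.32 and -0.50, with -0.42 for PAE 0.1X and -0.41 for PAE 3X. The PAE 3X group then held only PAE 3X 1 and PAE 3X 4.

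Foxo1 had the most negative and Rptor, a subunit of mTOR complex 1, the most positive difference from water of the 28 genes, so their promoters are shown. Each runs from 250 bases before to 50 after the RefSeq start on GRCm38.p6, 5′ to 3′ on the plus strand, at chr3:52268087-52268386 for Foxo1 and chr11:119602655-119602954 for Rptor. Capitals mark the GC box, GGGCGG on either strand.
Foxo1: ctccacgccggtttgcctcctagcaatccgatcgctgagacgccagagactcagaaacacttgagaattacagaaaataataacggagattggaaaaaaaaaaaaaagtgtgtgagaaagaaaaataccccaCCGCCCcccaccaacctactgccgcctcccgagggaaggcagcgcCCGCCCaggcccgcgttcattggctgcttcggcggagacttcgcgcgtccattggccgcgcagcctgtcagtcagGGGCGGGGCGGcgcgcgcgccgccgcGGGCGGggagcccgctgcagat
Rptor: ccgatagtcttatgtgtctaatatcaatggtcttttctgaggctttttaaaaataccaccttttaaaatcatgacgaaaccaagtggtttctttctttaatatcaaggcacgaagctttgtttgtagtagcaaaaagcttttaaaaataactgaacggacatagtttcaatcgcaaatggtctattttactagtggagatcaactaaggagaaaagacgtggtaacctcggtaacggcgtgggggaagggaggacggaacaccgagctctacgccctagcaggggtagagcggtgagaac
The Foxo1 window held 5 GC boxes, a pair of which share a base, at a GC content of 61.3%, and the Rptor window held 0 at 41.7%. RefSeq promoter entries were matched for 33 of the 36 listed genes, 42 entries in all, and 24 of these held a GC box (57.1%), beside 35.7% of the 32851 entries of the table. The FOXO core GTAAACA, on either strand, lay in 2 of the 42 entries, those of Akt1 and Stk11, beside 3.65% of all entries. The E-box CACGTG lay in 3 (Irs1, Irs2 and Rheb), beside 7.15%. The cAMP response element TGACGTCA lay in 0, beside 1.79%. A match describes letters in these windows and does not show that a factor binds there.

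Among the other Akt substrates, Gsk3b, a kinase that phosphorylates glycogen synthase, was the most variable member. Its main probe gave 5.83, 5.99, 5.11 and 5.82 under sitagliptin, 5.49, 5.28, 5.27 and 5.57 under AFFB, and 5.32, 5.92, 5.76 and 6.06 in water. Along the doses it gave 5.19, 5.68, 5.99 and 5.67 under PAE 0.1X, 5.13, 5.04, 5.48 and 5.78 under PAE 1X, and 5.09, 5.68, 6.01 and 4.82 under PAE 3X. All groups overlapped water. The differences ran from -0.41 under PAE 1X to -0.08 under sitagliptin. The other Gsk3b probe, also on all arrays, gave 5.39, 5.55, 5.57 and 5.72 under sitagliptin, against 5.16, 5.10, 5.31 and 5.32 in water, without overlap and with a difference of 0.33. Its F test over the 5 treatments had an unadjusted p of 0.0462 and an adjusted p of 1. The differences of these Gsk3b probes had opposite signs under sitagliptin, PAE 0.1X and PAE 1X.

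Tsc2, the GTPase activator that switches off Rheb, had group means of 8.41 under sitagliptin, 8.25 under AFFB, 8.19, 8.38 and 8.17 along the PAE doses and 8.28 in water, and none of its 3 kept probes had an unadjusted p under 0.05. The further Tsc2 probes differed from water by between -0.10 and 0.10 (24 arrays) and between -0.22 and 0.05 (15 arrays). Tsc1, the partner of Tsc2, was detected on 19 arrays and differed from water by between -0.12 and -0.03. Gsk3a, the sister kinase of Gsk3b, was detected on 7 arrays and on none of sitagliptin or AFFB.

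**Figure D3:**
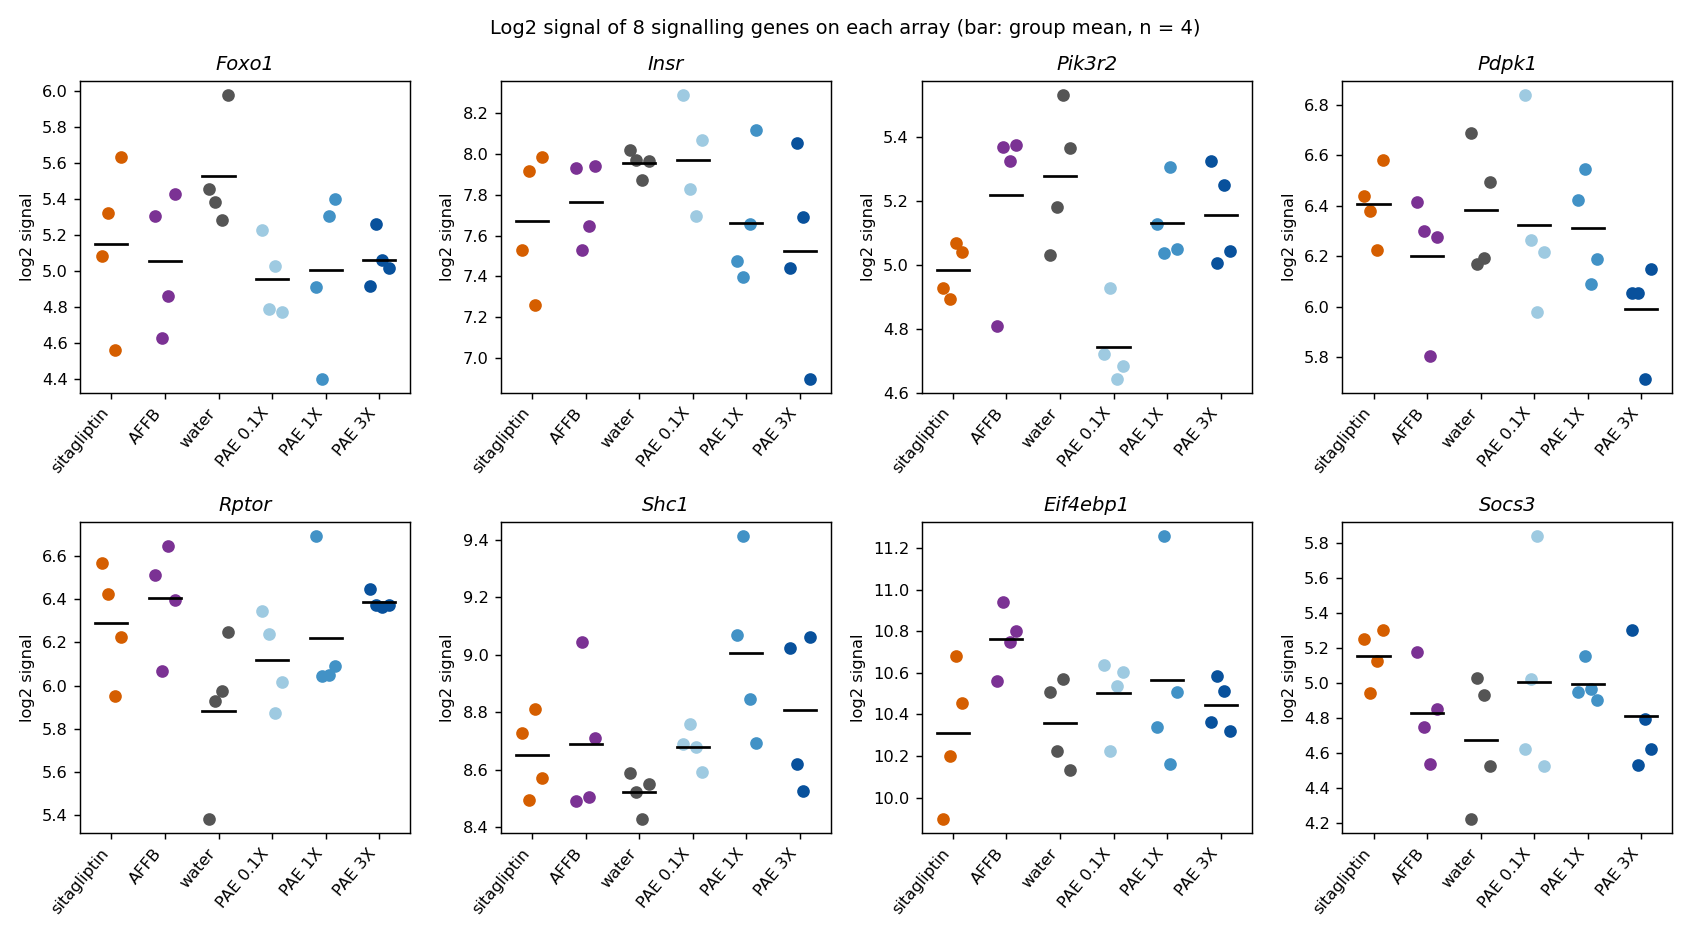
Log2 signal of 8 signalling genes on each of the 24 arrays, by group, with the group mean of 4 arrays as a bar and a scale of its own for each gene. The 4 Rptor arrays under PAE 3X sit between 6.36 and 6.45, all above water, and the 4 Pik3r2 arrays under PAE 0.1X all sit below water.

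In the mTOR branch, Rptor encodes Raptor, which brings substrates to mTOR complex 1. Its signals were 6.57, 6.42, 5.95 and 6.22 under sitagliptin and 6.51, 6.07, 6.64 and 6.40 under AFFB, against 5.38, 5.93, 5.97 and 6.25 in water. Under the extract it gave 6.35, 6.24, 5.87 and 6.02 at 0.1X, 6.69, 6.04, 6.05 and 6.09 at 1X, and 6.45, 6.37, 6.36 and 6.37 at 3X. The PAE 3X arrays lay above all water arrays, and the other treatments overlapped water. The value on water 1, 5.38, was the lowest of all 24.

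The Rptor differences, which share the water arrays, were 0.41 for sitagliptin, 0.52 for AFFB, 0.24 for PAE 0.1X, 0.34 for PAE 1X and 0.51 for PAE 3X (SE 0.18 each). Without water 1 they were 0.24, 0.36, 0.07, 0.17 and 0.34 in the same order. Adjusted p-values by limma were 1 for sitagliptin, 0.919 for AFFB and 0.761 for PAE 3X. The trend was 0.16 per step (SE 0.057), with an unadjusted p of 0.0092 and an adjusted p of 0.494. With median scaling the trend was 0.26 per step (adjusted p = 0.0657), where the median of all kept probes also moved, to 0.06. A further Rptor probe was detected on 8 arrays and on none of AFFB and PAE 1X, where its level is only a bound. Its measured values differed by 0.20 for sitagliptin, -0.01 for AFFB, -0.05 for PAE 0.1X, -0.16 for PAE 1X and -0.07 for PAE 3X.

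Eif4ebp1, the translation repressor 4E-BP1 that mTOR complex 1 inactivates, was highest under the beverage. AFFB arrays gave 10.56, 10.94, 10.75 and 10.80, against 10.51, 10.22, 10.57 and 10.14 in water, overlapping at a single pair of arrays. The difference was 0.40 (SE 0.19), with an unadjusted p of 0.0449 and an adjusted p of 0.919 by limma. Sitagliptin gave 9.90, 10.20, 10.68 and 10.46, and the PAE means were 10.50, 10.57 and 10.44 from 0.1X to 3X. Its highest array, PAE 1X 2 at 11.26, was the one farthest on the first principal component.

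Mtor, the kinase itself, averaged 6.52 under sitagliptin, 6.35 under AFFB, 6.28, 6.27 and 6.49 along the PAE doses, and 6.43 in water, with differences from water between -0.16 and 0.09. A further Mtor probe was detected on 8 arrays and on none of water, where its level is only a bound, and its measured values differed by between -0.02 and 0.20. Rictor, the subunit that defines mTOR complex 2, differed by between -0.07 and 0.25. Rheb, the GTPase that activates mTOR complex 1, differed by between -0.10 and 0.16.

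Of the inhibitors, Socs3, which blocks insulin and cytokine receptors and is induced by inflammation, was highest under sitagliptin. It gave 5.26, 4.95, 5.13 and 5.30 there, against 4.22, 5.03, 4.94 and 4.53 in water, a difference of 0.48 (SE 0.23, unadjusted p = 0.0462, adjusted p = 1). The water arrays spanned more than the sitagliptin arrays, and sitagliptin 2 lay within the span of water. AFFB gave 5.18, 4.75, 4.54 and 4.86. PAE 0.1X gave 4.63, 5.03, 5.84 and 4.53, PAE 1X gave 4.95, 5.16, 4.97 and 4.91, and PAE 3X gave 5.30, 4.53, 4.79 and 4.63. Socs3 was detected on 17 arrays, 4 of sitagliptin and 2 of water among them. Grb10, an adaptor that restrains the insulin receptor, differed by between -0.11 under sitagliptin and 0.27 under AFFB, the AFFB value being 0.11 without AFFB 1. A further Grb10 probe, detected on 10 arrays, differed by between -0.01 and 0.16.

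In the AMPK branch no member had an unadjusted p under 0.05 in any comparison. Prkag1, the AMPK gamma subunit that binds nucleotides, had means of 6.54 ± 0.13 under sitagliptin, 6.46 ± 0.14 under AFFB, 6.42 ± 0.12 under PAE 0.1X, 6.59 ± 0.11 under PAE 1X, 6.43 ± 0.12 under PAE 3X and 6.51 ± 0.14 in water (SD, n = 4 each). Prkab1, the beta subunit that holds the complex together, differed from water by between 0.01 and 0.19. Stk11, which encodes LKB1, differed by between -0.18 under PAE 3X and 0.06 under sitagliptin. Prkaa1, a catalytic subunit, was detected on 7 arrays, on none of sitagliptin and PAE 1X, with means of 4.51 under sitagliptin, 4.54 under AFFB, 4.72, 4.51 and 4.59 along the PAE doses, and 4.63 in water.

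Several genes ranked alike on the arrays far on the first principal component. That component was computed from all kept probes, these genes among them, so part of the likeness is built into the choice of arrays. On AFFB 2, PAE 1X 2 and sitagliptin 3 alike, Foxo1, Insr, Mtor, Rptor and Grb10 were the lowest of their group, 5 of 28 genes, beside 12.3% of all kept probes. Eif4ebp1, Prkab1, Shc1, Stk11, Tsc1 and Tsc2 were the highest on all 3, 6 of 28, again beside 12.3%. No water array lay that far on the component. With the 3 arrays left out no probe of the 28 genes passed, as none had with them. That count cannot measure the part of the component in the differences from water. Single values did move, as given for Foxo1 above. Marker lists of other cell types differed in level between groups. Adipocyte markers, 8 of 14 measured, ran from 4.85 to 5.50 on the PAE 3X arrays and from 5.11 to 6.19 in water, with 7 of the 8 lower and Lpl alone passing. Collagen and stellate markers, 8 of 12 measured, ran from 5.84 to 6.00 under AFFB, 5.89 to 6.09 under PAE 0.1X and 5.42 to 6.19 under PAE 1X, against 6.22 to 6.51 in water. All 8 were lower under AFFB (median -0.54) and PAE 0.1X (median -0.24) and 7 under PAE 1X (median -0.39), with 0 passing in each. Foxo1 differed from water by -0.47, -0.57 and -0.52 in these groups and by -0.46 under PAE 3X. Under PAE 3X the collagen marker means of single arrays overlapped water, though all 8 genes were lower (median -0.09, 0 passing). Under sitagliptin 7 of the 8 were lower (median -0.11, 0 passing). Erythroid markers, 5 of 10 measured, ran from 8.13 to 9.48 under PAE 3X and from 7.75 to 8.46 in water, with 4 of the 5 higher and 0 passing. With the adipocyte and B cell marker means as covariates no probe of the signalling genes passed, as none had without them. The B cell mean rested on 3 of 10 markers, namely Xbp1, Cd79b and Mzb1. Cd79b was detected on 8 arrays and Mzb1 on 6, so this mean is a weak measure of B cells. Of 10 measured macrophage markers, 7 to 9 were lower than in water under each treatment, with 0 passing. All 7 measured endothelial markers were lower under sitagliptin and AFFB, while 5 of them were higher under PAE 0.1X, with 0 passing in each. The part of the other cell type markers, namely acinar, islet, duct, T cell, macrophage, endothelial, collagen and erythroid, was not tested.

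**Figure D4:**
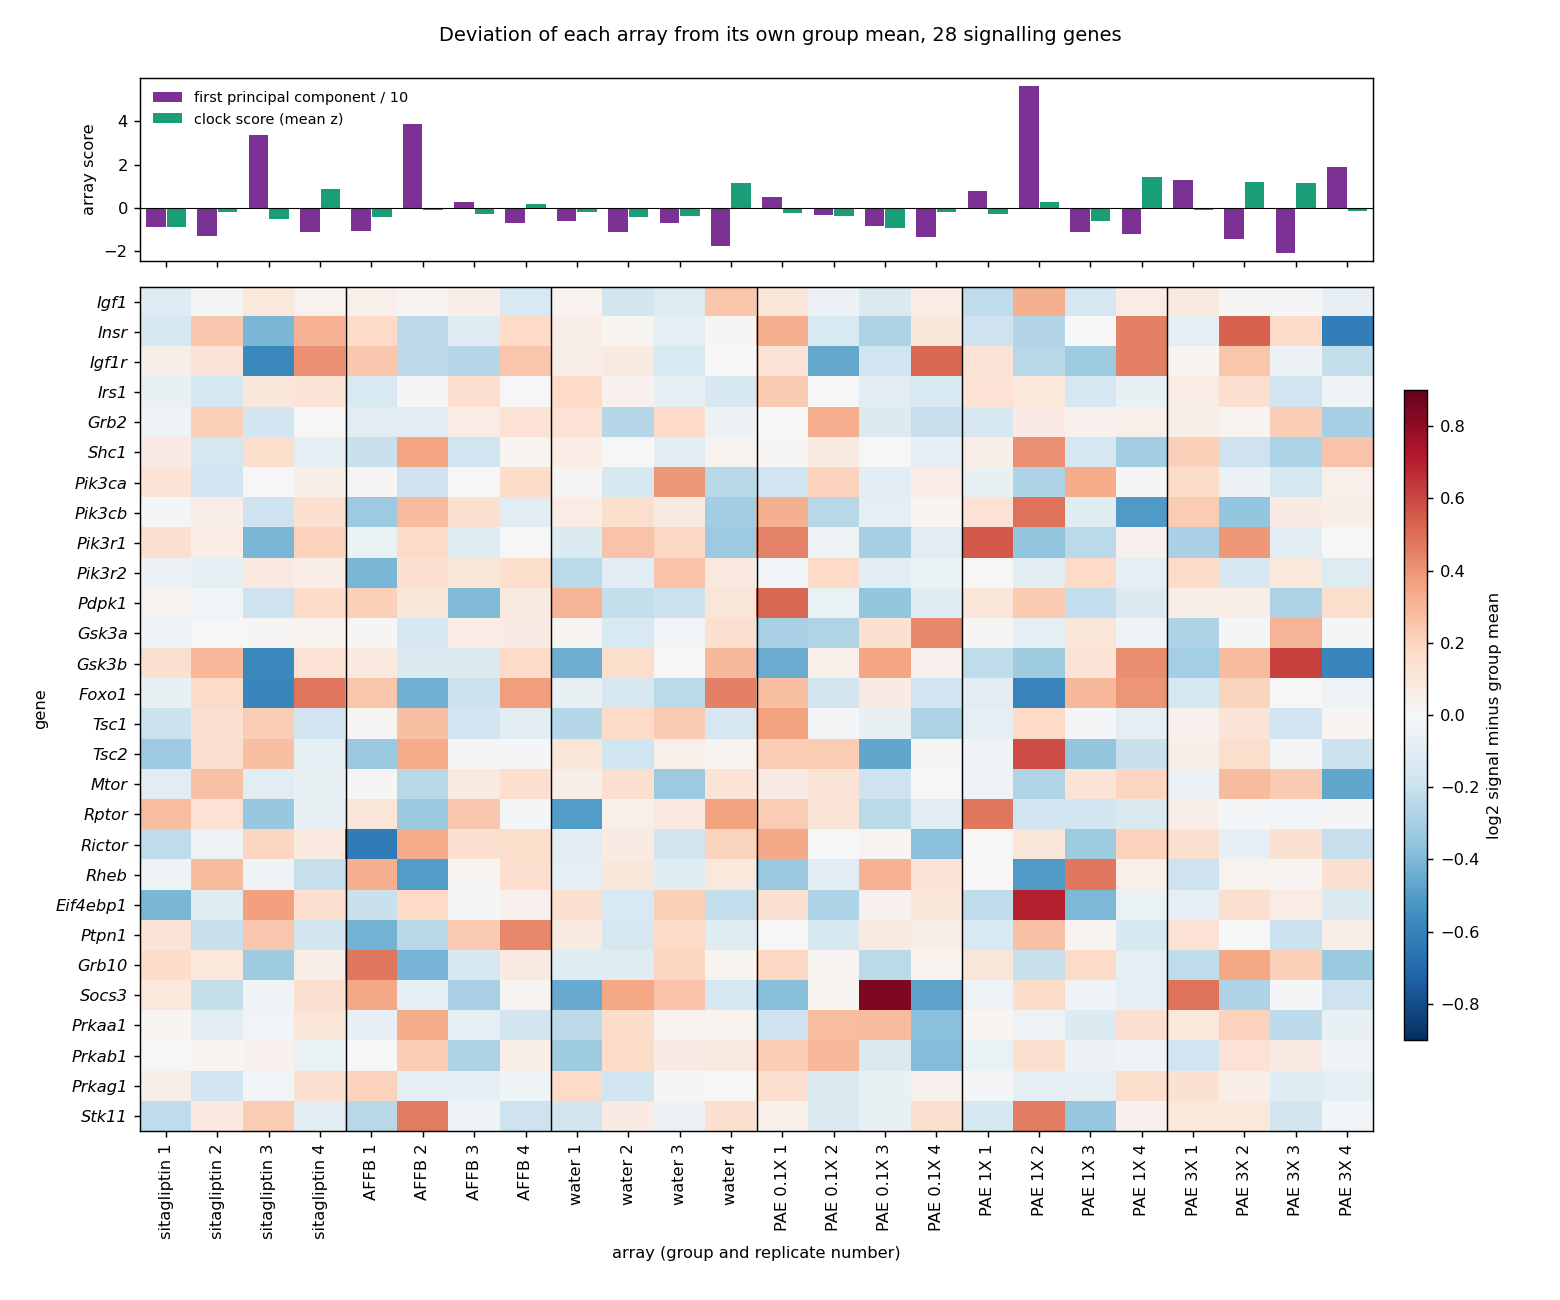
Deviation of each array's log2 signal from the mean of its own group of 4, for the 28 signalling genes (rows, by role) and the 24 arrays (columns), with the first principal component divided by 10 and the clock score of each array above. On AFFB 2, PAE 1X 2 and sitagliptin 3, Foxo1, Insr, Mtor, Rptor and Grb10 are the lowest of their group and Eif4ebp1, Shc1 and Tsc2 the highest.

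Further genes of the pathways, from 7 lists of binding proteins, kinases, regulators and targets, gave 95 measured genes, and none passed an adjusted p of 0.05 in any comparison. At an unadjusted p under 0.05 there were 4 for sitagliptin, 4 for AFFB, 3 for PAE 0.1X, 10 for PAE 1X, 12 for PAE 3X, 1 for AFFB against PAE 1X, 16 for the trend and 6 for the F test. As shares these were 4.21%, 4.21%, 3.16%, 10.5%, 12.6%, 1.05%, 16.8% and 6.32%, beside 2.74%, 5.03%, 3.78%, 6.50%, 5.03%, 4.41%, 6.88% and 4.31% of all kept probes. The 13 measured negative regulators held 6 of the trend's genes and the 24 mTOR regulators held 5. Over all 13 negative regulators the slope was positive for 7 and negative for 6, and over the 24 mTOR regulators for 16 and 8. These lists were chosen with earlier results of these data known, so the shares and counts do not test the pathways. Each listed gene counted by its kept probe of highest mean, whereas the background held every kept probe.

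Dusp6, a phosphatase induced by ERK signalling that switches ERK off, had the smallest p of these genes. It averaged 6.98 ± 0.49 under PAE 3X and 6.26 ± 0.37 in water (SD, n = 4 each), a difference of 0.71 (SE 0.21, adjusted p = 0.542). Under sitagliptin Dusp6 averaged 5.83 ± 0.28, a difference of -0.43 from water (adjusted p = 1). Trib3, a pseudokinase that binds Akt, averaged 7.07 ± 1.00 under PAE 3X, 6.86 ± 1.06 under PAE 1X, 5.92 ± 0.16 under PAE 0.1X and 5.95 ± 0.36 in water, a trend of 0.43 per step (SE 0.13, adjusted p = 0.317). Its spread was wide at the 2 higher doses. Trib2, listed with Trib3 among the negative regulators, had a trend of -0.12 per step (SE 0.041, adjusted p = 0.46 by limma). Castor2, a paralogue of the arginine sensor Castor1 upstream of mTOR complex 1, averaged 4.95 under sitagliptin and 4.98 under AFFB, with adjusted p-values of 1 and 0.919. The water mean was 5.47 ± 0.43, and Castor2 averaged 5.55, 5.26 and 5.06 along the PAE doses. Sgk1, a kinase related to Akt, averaged 9.19 ± 0.34 under PAE 0.1X and 9.93 ± 0.27 in water, a difference of -0.74 (SE 0.29, adjusted p = 1). Its other means were also below water, at 9.41 under sitagliptin, 9.50 under AFFB, 9.24 under PAE 1X and 9.58 under PAE 3X. Prkaa2, the other catalytic subunit of AMPK, averaged 6.19 ± 0.20 under AFFB and 5.65 ± 0.55 in water, a difference of 0.54 (SE 0.26, adjusted p = 0.919). Its other means were also above water, at 6.12 under sitagliptin and 5.92, 6.18 and 6.09 along the PAE doses.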

How the data were processed

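Biotin-labelled cRNA was made from pancreas RNA with an Illumina kit for single-colour bead arrays, per the labels' protocols. The deposited non-normalized table gives each probe on each array a mean bead intensity on a linear scale and a detection p-value, per the file headers. The authors also deposited log2 values. The submitters' processing notes name limma 3.22.1 and R 3.1.2. Scanner software, and which chip held which array: not given in the sources used here. The deposited log2 values matched the normalization used here, with a 99th percentile of the absolute difference of 0.00194, a largest difference of 0.104 and an array median of 4.37.

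Here neqc (offset 16) of limma 3.58.1 in R 4.3.3 corrected the background and applied quantile normalization, and the fit was tested on simulated data. Keeping a probe required a detection p under 0.05 on 4 or more of 24 arrays, and 13086 of these 15328 had 1 gene symbol in the platform annotation. All 79 probes of the listed genes carried the current RefSeq symbol. One limma model of the group means, moderated by eBayes, was fitted to all 24 arrays, and p-values were two-sided and adjusted over all kept probes. The trend used scores of 0 to 3. The F test covered 5 treatments. Precision is limited by the 4 arrays in each group. Where a probe was undetected throughout a group, its level there is only a bound, and differences are those of the measured values.

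Every listed gene was named by role, with every-array values for the 2 genes of smallest p in each comparison and the 3 of largest spread, and group means for chosen others. Genes outside the list were named from the 2 smallest p of their pathway list. Members, lists and rules were chosen with earlier results of these data known. Alternatives changed background correction, offset, scaling, filter, variance model, arrays in the fit, covariates and the replicate block, took the deposited log2 values as input, or dropped arrays. Promoters were taken from a RefSeq table on GRCm38.p6.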

Additional observations from a re-analysis of the deposited data

Results flagged for a closer look

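In 7 of 168 groups of 4 arrays, counted over the 28 genes and 6 groups, 1 array stood far from the rest by Dixon's criterion at its 95% critical value. That is 4.17% of the groups, and chance alone flags about 1 in 20. Rptor was among them in 2 groups. It stood at 6.69 on PAE 1X 1, with the others between 6.04 and 6.09, and at 6.45 on PAE 3X 1, with the others between 6.36 and 6.37. Pik3r2 was low on AFFB 1, at 4.81 against 5.33 to 5.38 on the others. Mtor was high on sitagliptin 2, at 6.78 against 6.42 to 6.46. Prkag1 was high on AFFB 1, at 6.67 against 6.37 to 6.42. Prkab1 was high on PAE 1X 2, at 6.15 against 5.95 to 5.97. Grb2 was low on PAE 1X 1, at 4.42 against 4.61 to 4.65.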

How the results depend on the processing

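The count of signalling gene probes passing an adjusted p of 0.05 was 0 in all 8 comparisons and in all 304 alternative settings of them, including each array left out in turn (range 0 to 0). At most 24 of all 15328 kept probes passed in any main comparison. The count therefore had little room to move, and it does not show that values of single genes are stable. Of 7490 values of single genes under an alternative, 0 passed, 59 moved by the within-group SD or more, and 369 took the opposite sign, 359 of them from a value nearer to 0 than its SE. The lowest adjusted p was 0.0657, for the Rptor trend with median scaling. With the replicate number as a block 0 probes passed in every comparison. Over 60 pairs of same-numbered arrays the correlation of deviations ran from -0.553 to 0.63, with 21 over 0.1. Its median was 0.0327, beside -0.0139 for differently numbered pairs. Raw median signal ran from 81.3 to 85.8 on the arrays numbered 1 and from 88.4 to 98.7 on those numbered 2. The source of that difference was not tested. Counts over all kept probes depended more on the setting, with 0 (without the arrays of high clock score) to 33 (array weights) for PAE 3X beside 7, 0 to 14 for PAE 1X beside 1, 2 (without water 2) to 85 (median scaling) for the trend beside 24, 1 to 29 for the F test beside 16, and 0 to 4 for AFFB against PAE 1X beside 1. The cause was not tested. Without background correction the differences of dim probes were nearer to 0, at -0.18 for Foxo1 and -0.15 for Pik3r2 under PAE 0.1X and 0.15 for Socs3 under sitagliptin. The limits used for leaving out arrays, a clock score above 0.5 and a first principal component above 30, were chosen after seeing the data, since the planned clock limit of 2 left out no array. The fit restricted to the groups compared does not apply to the F test. Probes near background, such as those of Irs1, Pik3ca and Prkaa1, limit what can be seen there.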

Other observations

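Dpp4, which encodes the enzyme that sitagliptin inhibits, differed from water by -0.20 under sitagliptin (SE 0.19, adjusted p = 1 by limma) and by -0.49 under AFFB (SE 0.19, adjusted p = 0.919), where it was detected on 0 of 4 arrays and its level is only a bound. Ins2, an insulin gene, differed by between -0.67 under PAE 3X and 0.20 under PAE 0.1X, with an SE of 0.66 in each comparison.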
